A study of Mus musculus with 4 samples.

Results

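Non-classical monocytes were followed in the spleen and blood of mice bearing BeCon tumours, a model placed in ovarian cancer by the study's title. They were 165 of the 6741 cells that could be assigned to a mouse and a tissue, 97 from blood and 68 from spleen. All came from a single droplet library that pooled both tissues of every mouse, each tissue sample carrying its own hashtag, an antibody-borne barcode. A cell was counted as a non-classical monocyte when it held at least 2 unique molecular identifiers (UMIs, each marking 1 captured transcript) of Treml4, Ace and Cd300e together, at least 1 of Csf1r, and none of Cd79a or Cd3e. Levels of those 6 genes were therefore fixed by the choice of cells and are given as description; they stayed in the fits across all genes, where nothing is read from their calls.

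The mice were of the B6 strain, and every animal carried the tumour, so no tumour-free group was compared. Vehicle mice 1, 2 and 3 were the controls, and treated mice 2, 3 and 4 received YKL-05-099, an inhibitor of the salt-inducible kinases. A number used in both arms stood for different animals. Viable cells positive for CD45 and MHCI had been sorted from each tissue. Ages, doses and treatment times were not given in the sources used here.

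Of 14792 barcodes, 11513 passed the limits on genes, UMIs and mitochondrial transcripts, and 6741 of those had a clear hashtag. A further 81 cells met the gate without a clear hashtag and were not analysed; their median depth was 12787 UMIs. The monocytes held a median of 5670 UMIs and 1974 genes, and their summed counts ran from 31956 to 148249 UMIs per sample. Levels are given as CPM, the UMIs of a gene among the summed UMIs of a sample's monocytes, scaled to a total of 1000000. The mouse was the replicate in the main fits, and their p-values measure the spread between mice. In total 52 barcodes were shared with the ascites library of the same study, none of them in the gate.

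Non-classical monocytes arise largely from classical Ly6C-high monocytes and patrol the inner surface of blood vessels. Their formation depends on the nuclear receptor NR4A1 and on C/EBPβ, and CX3CR1 supports their survival. The salt-inducible kinases phosphorylate the CRTC coactivators and class IIa histone deacetylases, which keeps both in the cytoplasm. Inhibition of the kinases releases CRTC to the nucleus, where it acts with CREB on cAMP-responsive genes such as Nr4a1, Sik1 and Crem.

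The gated cells carried the transcripts that usually mark this class. Adgre4, an adhesion receptor of non-classical monocytes, stood at 527 CPM in the blood cells and 382 CPM in the spleen cells, against 23.6 CPM in classical monocytes and 2.37 CPM in T cells of the same library. Itgal, the αL chain of the integrin LFA-1, stood at 1297 CPM in blood, 667 CPM in spleen and 140 CPM in classical monocytes. Cx3cr1, the fractalkine receptor, stood at 457 CPM in blood, 260 CPM in spleen and 109 CPM in classical monocytes. Genes of classical monocytes ran the other way. Ly6c2 stood at 141 CPM in blood and 224 CPM in spleen, against 1319 CPM in classical monocytes. Ccr2, the receptor for egress from the marrow, stood at 126 and 136 CPM against 628 CPM. The classical cells were chosen on Ly6c2 and Ccr2, so those levels follow from the choice of cells.

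Some transcripts of other cell types were found at a similar rate in every class. Ighm, a B cell transcript, had at least 1 UMI in 95.9% of the blood monocytes, 95.6% of the spleen monocytes and 97.2% of T cells. S100a8, a neutrophil transcript, had at least 1 UMI in 60.8%, 58.8% and 60.2% of the same cells. Single UMIs of these 2 genes were therefore read as background. Haemoglobin transcripts were not spread so evenly: Hba-a1 had at least 1 UMI in 15.5% of the blood monocytes, 39.7% of the spleen monocytes (33.3% without 8 macrophage-rich cells described below) and 17.6% of T cells.

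Cells just inside the gate held fewer of the other marker transcripts. Among the 23 cells with exactly 2 UMIs of Treml4, Ace and Cd300e, 65.2% had an Adgre4 UMI and 47.8% an Ly6c2 UMI. Among the 125 cells with more than 3, the shares were 89.6% and 15.2%. Just outside, the 46 cells with 1 UMI had 39.1% and 47.8%. The gate thus cut through a range of cells and not between separated groups.

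In all, 9 cells stood apart from the other members of the gate. Of these, 8 spleen cells held 16 to 167 UMIs of the macrophage genes C1qa, C1qb, C1qc and Vcam1 together, where every other gated cell held at most 2. They were 3, 1 and 3 of the 8 gated spleen cells of vehicle mice 1, 2 and 3, and 1 of the 17 of treated mouse 4. Their median depth was 8404 UMIs, against 5235.5 in the other 60 spleen cells, and whether some were doublets was not tested. Their transcripts included those of splenic macrophages that clear red cells. The haemoglobin gene Hbb-bs stood at 9102 CPM, Slc40a1, the iron exporter ferroportin, at 508 CPM, and Spic, a transcription factor of red pulp macrophages, at 213 CPM. Genes of non-classical monocytes were split in them. No Cx3cr1 UMI was found, Ace had a UMI in 1 of the 8, and Spn had 2 UMIs in all. Adgre4, however, had a UMI in all 8, at 377 CPM against 383 CPM in the other 60 spleen cells. Treml4 stood at 213 against 244 CPM, Cd300e at 312 against 181 CPM and Fcgr4 at 1574 against 357 CPM. Those other spleen cells held Cx3cr1 at 302 CPM and 1 UMI of C1qa in all, and 93.3% had an Ace UMI. The ninth, a blood cell of vehicle mouse 3, held 5234 UMIs of the neutrophil genes S100a8 and S100a9, and the others held at most 10. The gate therefore held some cells with many transcripts of another class, and the results below are given with all 165 cells and, where it matters, with the 156 that remain without these 9.

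**Figure D1:**
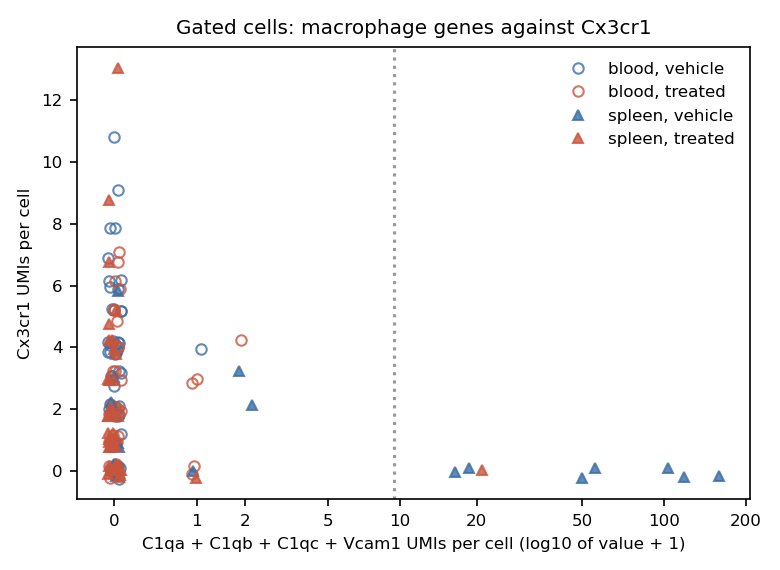
UMIs per cell of the macrophage genes C1qa, C1qb, C1qc and Vcam1 together (horizontal axis, log10 of the value + 1) against Cx3cr1 UMIs per cell (vertical axis), each point being 1 gated cell, shifted slightly at random so that points do not cover each other, with colour for the arm, shape for the tissue and a dotted line at 10 UMIs. To the right of the line lie 8 spleen cells without Cx3cr1 that held 16 to 167 UMIs, and every other gated cell had at most 2.

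The share of non-classical monocytes was higher in blood than in spleen in every mouse. In blood they made up 4.24%, 3.93% and 3.92% of the assigned cells of vehicle mice 1 to 3, and 4.79%, 3.68% and 2.19% of those of treated mice 2 to 4. In spleen the shares were 1.26%, 1.37% and 1.34% in the vehicle mice and 0.767%, 2.77% and 2.11% in the treated mice. Treated mouse 4 came closest to equality between its tissues. The mean difference of blood minus spleen was 2.19 percentage points, positive in 6 of 6 mice (exact two-sided sign-flip permutation test, p = 0.03125, the smallest that 6 pairs allow; Benjamini-Hochberg adjusted p = 0.09375 over the 3 share comparisons, which misses 0.05). With every cell thinned to 2000 UMIs, which left out 163 shallower cells, the difference was 2.08 points.

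No difference in share between the arms was shown. In blood the vehicle mean was 4.03% ± 0.182 (SD, n = 3) and the treated mean 3.55% ± 1.30 (exact two-sided permutation test, p = 0.7, adjusted p = 0.7). In spleen the vehicle mean was 1.32% ± 0.0563 (SD, n = 3) and the treated mean 1.88% ± 1.02 (exact permutation p = 0.4, adjusted p = 0.6). A design of 3 against 3 mice cannot reach a p below 0.1. The treated mice spread more widely than the vehicle mice in both tissues, and the 2 arms overlapped in both. The exact binomial 95% interval of a single share ran, for example, from 2.57% to 6.54% in the blood of vehicle mouse 1 and from 0.282% to 1.66% in the spleen of treated mouse 2. These intervals cover counting error only.

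**Figure D2:**
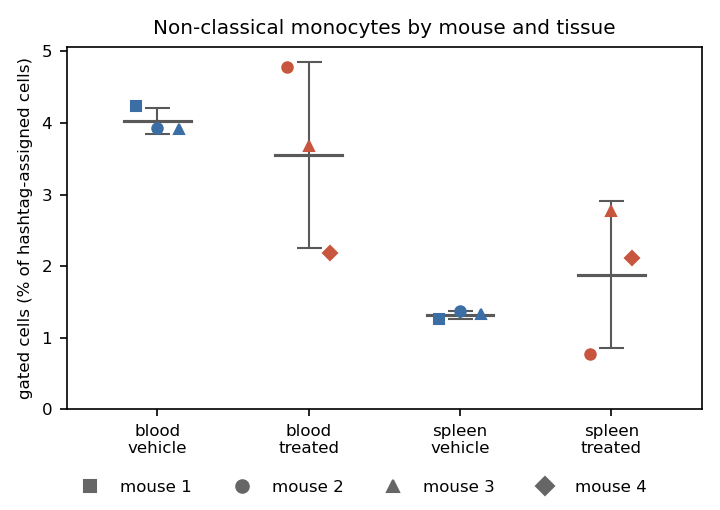
Share of hashtag-assigned cells that were non-classical monocytes (vertical axis, percent) by tissue and arm, with 1 point per mouse and the mean and SD of the 3 mice of each group. Blood values run from 2.19% to 4.79% and spleen values from 0.767% to 2.77%.

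Between spleen and blood cells of this class, the smallest adjusted p-values belonged to the heat-inducible chaperones Hspa1b and Hspa1a. Of 2008 genes tested within mice, 144 passed an adjusted p of 0.05 (7.17%), 79 of them higher (3.93%) and 65 lower (3.24%) in spleen. Leaving out the 9 cells that stood apart gave 98 of 2052 (4.78%), 47 higher (2.29%) and 51 lower (2.49%), and 83 of the 98 were among the 144. The gate gene Cd300e is 1 of the 51. Larger log2 differences included the macrophage genes C1qc (5.86) and C1qa (5.33), carried by the 8 macrophage-rich cells, and the haemoglobin gene Hbb-bt (4.44). All 4 haemoglobin genes tested were higher in spleen; without the 9 cells Hbb-bs alone was still tested and did not pass (log2 0.84). Hspa1a and Hspa1b encode the inducible HSP70 protein, which refolds damaged proteins, and their promoters are bound by heat shock factor. The 250 bases before each start site are given because both genes carried the tissue difference, and because those bases are nearly identical in the copies. The capitals mark the letters GAANNTTC, a core of the heat shock element searched on both strands (N is any base). Hspa1a lies at chr17:34972157-34972406 and Hspa1b at chr17:34959239-34959488, both on the minus strand (RefSeq, GRCm38.p6). Dnaja1, a co-chaperone of HSP70, has 3 annotated starts, and the window of the first, at chr4:40722218-40722467 on the plus strand, is shown.
Hspa1a: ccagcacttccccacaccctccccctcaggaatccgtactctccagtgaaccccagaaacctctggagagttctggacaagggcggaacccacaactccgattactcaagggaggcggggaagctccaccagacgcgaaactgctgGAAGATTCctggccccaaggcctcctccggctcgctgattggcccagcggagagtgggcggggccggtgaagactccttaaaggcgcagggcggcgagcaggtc
Hspa1b: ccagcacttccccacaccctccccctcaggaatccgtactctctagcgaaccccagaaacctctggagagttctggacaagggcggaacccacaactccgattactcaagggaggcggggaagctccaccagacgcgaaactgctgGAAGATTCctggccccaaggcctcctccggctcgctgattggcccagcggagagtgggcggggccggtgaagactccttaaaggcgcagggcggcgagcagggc
Dnaja1: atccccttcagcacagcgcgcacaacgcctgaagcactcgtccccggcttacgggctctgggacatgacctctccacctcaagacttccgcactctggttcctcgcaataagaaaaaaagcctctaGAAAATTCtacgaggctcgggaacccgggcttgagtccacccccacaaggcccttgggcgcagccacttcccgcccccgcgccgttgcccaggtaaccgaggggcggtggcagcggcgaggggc
The Hspa1a and Hspa1b windows were identical at 247 of 250 positions (98.8%), and each held 1 match, beginning 104 bases before the start. The Dnaja1 window held 1 match, 124 bases before its start, while the windows of its other 2 starts held none. Both windows of Dnajb1, another co-chaperone, held none, and the window of Cxcr4, which is no chaperone, held 1. GAANNTTC was present in 6.69% of 32851 such windows of all genes, and a match is a description of letters and not a binding site.

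Hspa1b was measured at 122, 140 and 87.7 CPM in the blood of vehicle mice 1 to 3 and at 1102, 1092 and 947 CPM in their spleens. In treated mice 2 to 4 it was 87.8, 166 and 115 CPM in blood and 2597, 2969 and 2704 CPM in spleen. Every spleen lay far above every blood sample (log2 difference 3.95 ± 0.23 SE, edgeR adjusted p = 8.92e-36). Hspa1a was 84.6, 100 and 60.7 CPM in vehicle blood and 1042, 1523 and 1672 CPM in vehicle spleen. Treated blood held 120, 166 and 439 CPM of Hspa1a, and treated spleen 2441, 2395 and 2135 CPM. Its spleen and blood values likewise did not overlap (log2 3.89 ± 0.24, edgeR adjusted p = 1.87e-32). Over all genes tested, the tissues did not overlap for 63 of 2008. Only the windows before the starts of the copies were compared, not their transcripts, so how surely reads were split between them was not tested. In single cells, the pair had at least 1 UMI in 37 of 55 vehicle and 28 of 42 treated blood cells, and in 20 of 24 vehicle and 43 of 44 treated spleen cells.

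By DESeq2, 4 of 13 heat shock and chaperone genes tested passed between the tissues. By edgeR, 3.93% of all genes tested were higher and 3.24% lower in spleen. Of the 13, 5 were higher and none lower, with a median log2 difference of 0.55 against -0.01 over all genes tested. Besides the HSP70 pair, these were Dnaja1 (log2 1.31 ± 0.25, edgeR adjusted p = 4.77e-05), Hsp90aa1 (1.18 ± 0.22, adjusted p = 3.69e-05) and Hspe1 (0.93 ± 0.30, adjusted p = 0.0323). Hsp90aa1 is the inducible HSP90 chaperone, and Hspe1 is a mitochondrial co-chaperone. Without the 9 cells Hspe1 did not pass (adjusted p = 0.0659) and Hspa8, the constitutive HSP70 family member, did (log2 0.59, adjusted p = 0.0472). Other gene families were higher in spleen as well: 16 of 82 ribosomal protein genes passed (median 0.41) and 4 of 12 mitochondrially encoded genes (median 0.37), none lower, and without the 9 cells 8 and 2 passed. The same direction was present in lymphocytes of these samples. T cells held 50.6 to 92.3 CPM of Hspa1b in vehicle blood and 798 to 1075 CPM in vehicle spleen. B cells held 93.2 to 106 CPM and 527 to 600 CPM. In the few classical monocytes the tissues overlapped in vehicle mice, at 36.8 to 795 CPM in blood and 346 to 496 CPM in spleen. The blood of vehicle mouse 2 held only 1 such cell. In treated mice they did not overlap, at 63.7 to 122 CPM in blood and 622 to 2409 CPM in spleen. The part of a difference shared with other cell types in the monocyte result was not tested.

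Egr1, Fkbp5 and Ddit4 were also higher in spleen. Egr1, an immediate early transcription factor, was 28.2, 40.0 and 80.9 CPM in vehicle blood and 140, 76.9 and 222 CPM in vehicle spleen. In the treated mice it was 39.9, 23.7 and 57.3 CPM in blood and 313, 354 and 202 CPM in spleen (log2 2.32 ± 0.36, edgeR adjusted p = 1.78e-07). Each mouse had more in spleen. Fkbp5, a chaperone of steroid receptors induced by glucocorticoids, differed by 2.41 ± 0.39 on the log2 scale (edgeR adjusted p = 1.32e-06), and Ddit4, an inhibitor of mTORC1, by 1.73 ± 0.39. Dusp1, a phosphatase of MAP kinases that glucocorticoids also induce, ran the other way (log2 -1.20 ± 0.19, edgeR adjusted p = 3.72e-07). Of 9 glucocorticoid-responsive genes tested, 2 were thus higher and 1 lower in spleen by edgeR, and DESeq2 called 1. Over all genes tested edgeR gave 3.93% higher and 3.24% lower. T cells also held more Egr1 in spleen (126 to 190 CPM in vehicle mice, against 23.9 to 50.6 CPM in blood) and more Fkbp5 (78.3 to 94.2 against 4.74 to 11.5 CPM). In classical monocytes the tissues overlapped for both genes, Egr1 at 0 to 249 CPM in vehicle blood and 109 to 410 CPM in vehicle spleen, and Fkbp5 at 0 to 199 CPM and 129 to 273 CPM. The part of such a shared shift in the monocyte values was not tested.

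Many genes that identify non-classical monocytes were lower in the spleen cells. Of 22 such genes tested, 11 were lower and 2 higher in spleen, with a median log2 difference of -0.68. Over all genes tested 3.24% were lower and 3.93% higher, with a median of -0.01. With all cells DESeq2 called 6 of the 22, where edgeR called 13. Without the 9 cells, 6 were lower and 1 higher by edgeR, with a median of -0.54, against 2.49% lower and 2.29% higher over all genes. Spn, the sialoglycoprotein CD43, was 583, 650 and 600 CPM in vehicle blood and 160, 169 and 104 CPM in vehicle spleen. Treated mice had 391, 438 and 496 CPM in blood and 657, 304 and 275 CPM in spleen. Only treated mouse 2 had more in spleen (log2 -1.05 ± 0.24, edgeR adjusted p = 0.000797). Itgal was 1015 to 1310 CPM in vehicle blood and 459 to 523 CPM in vehicle spleen, and 1107 to 1848 CPM in treated blood against 623 to 962 CPM in treated spleen. No spleen sample reached the lowest blood sample (log2 -0.95 ± 0.20, edgeR adjusted p = 0.000265). Ear2, a ribonuclease, differed by -0.96 ± 0.22 (adjusted p = 0.00145) and Eno3, an enolase, by -1.07 ± 0.26 (adjusted p = 0.00244). Those 4 genes passed without the 9 cells too. Of 10 classical monocyte genes tested, 9 lay above 0 in spleen, against 49.6% of all genes, with a median log2 difference of 0.38. Among them 1 passed, the fibronectin gene Fn1 (1.73 ± 0.36, edgeR adjusted p = 0.000265), and DESeq2 called none of the 10. Without the 9 cells 3 of 12 were higher and none lower by edgeR (median 0.76): Fn1, Chil3 (1.26 ± 0.24, adjusted p = 5.31e-05) and Plac8 (0.85 ± 0.19, adjusted p = 0.000778). For Chil3 the difference was smaller in treated than in vehicle mice (log2 -2.10 ± 0.47 between the arms, edgeR adjusted p = 0.00978). The part of classical monocyte genes in the fall of the non-classical genes was not tested.

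The gate genes, given as description only, were also scarcer in spleen. A spleen cell held a median of 6 UMIs of Treml4, Ace and Cd300e together and a blood cell 9, at median depths of 5531.5 and 5727 UMIs. Csf1r, the receptor for M-CSF, had a median of 3 UMIs in spleen and 5 in blood. Non-classical monocytes took 50% to 84.2% of the Csf1r-positive cells outside the B and T lineages in blood and 17.0% to 52.5% in spleen. The part of cells near the gate's edge in the tissue differences was not tested beyond a stricter gate of 3 UMIs, under which 71 genes passed.

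Several transcription factors of the lineage were lower in spleen. Of 21 myeloid transcription factors tested, 6 were lower and 1 higher in spleen, and 4 were lower and none higher without the 9 cells. Over all genes tested 3.24% were lower and 3.93% higher, and without the 9 cells 2.49% and 2.29%. With all cells DESeq2 called 3 of the 21, where edgeR called 7. Pou2f2, the B cell and monocyte factor OCT2, was 818 to 1062 CPM over the blood samples and 301 to 658 CPM over the spleen samples. The ranges did not overlap (log2 -0.86 ± 0.21, edgeR adjusted p = 0.00227; -1.07 without the 9 cells, adjusted p = 0.0002). Cebpb was 1813 to 3199 CPM in blood and 858 to 1611 CPM in spleen, again without overlap (log2 -0.68 ± 0.18, edgeR adjusted p = 0.00799). Mef2a, a target factor of class IIa histone deacetylases, differed by -1.01 ± 0.25 (edgeR adjusted p = 0.00399). The calls of Nr4a1, Klf2 and Cx3cr1 were lost without the 9 cells. Nr4a1 moved from -0.75 ± 0.21 (edgeR adjusted p = 0.0132) to -0.58 (adjusted p = 0.102). Klf2, a factor of lymphocyte and monocyte trafficking, moved from -0.81 ± 0.20 (adjusted p = 0.00207) to -0.60 (adjusted p = 0.0506), and Cx3cr1 from -0.86 ± 0.24 (adjusted p = 0.0104) to -0.61 (adjusted p = 0.148). Klf2 was lower in the spleen in other classes of the vehicle mice as well, at 536 to 590 CPM against 1400 to 1506 CPM in B cells, 597 to 696 against 1165 to 1264 CPM in T cells and 396 to 1025 against 1096 to 2033 CPM in classical monocytes.

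Some effector genes were higher in spleen. Of 9 inflammatory genes tested, 3 were higher and none lower, and the same 3 passed without the 9 cells. Over all genes tested 3.93% were higher and 3.24% lower, and without the 9 cells 2.29% and 2.49%. With all cells DESeq2 called 1 of the 9 genes tested. Ccl9, a chemokine, was 57.3 to 231 CPM in blood and 200 to 533 CPM in spleen (log2 1.27 ± 0.27, edgeR adjusted p = 0.000402). Ccl6, a related chemokine, differed by 0.72 ± 0.21. Tnf, an inflammatory cytokine, was 28.2, 20 and 47.2 CPM in vehicle blood and 80.2, 30.8 and 29.6 CPM in vehicle spleen, which overlapped. It was 7.98, 0 and 0 CPM in treated blood and 156, 110 and 110 CPM in treated spleen (log2 2.70 ± 0.81 over both arms, edgeR adjusted p = 0.0207). Its call was lost without vehicle mouse 1 (2.42, adjusted p = 0.189), vehicle mouse 2 (2.70, adjusted p = 0.0648) or treated mouse 4 (2.60, adjusted p = 0.108), and without treated mouse 3 the gene was too low to test. Among 14 Fc receptor, complement and phagocytosis genes, 5 were higher and none lower in spleen, with a median of 0.02, and DESeq2 called 1. Without the 9 cells 2 of 12 were higher, Fcgr2b and Fcgr3, and the median was -0.16. Fcgr3, an activating receptor for IgG, differed by 1.09 ± 0.25 (edgeR adjusted p = 0.0011) and Fcgr2b, the inhibitory one, by 1.01 ± 0.31 (adjusted p = 0.0221). Of the 6 fits that left out a mouse, Fcgr3 kept its call in 6 and Fcgr2b in 2. Fcgr4 passed with all cells (0.79 ± 0.23, adjusted p = 0.0148) but not without the 9 cells (0.44, adjusted p = 0.338). Ifi30, a lysosomal thiol reductase of antigen processing, differed by 1.64 ± 0.26 (edgeR adjusted p = 2.58e-07). None of 14 MHC and interferon gamma genes passed between the tissues by edgeR or DESeq2, with 1 and 4 at an unadjusted p under 0.05. Over all 2008 genes edgeR gave 414 at that p.

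**Figure D3:**
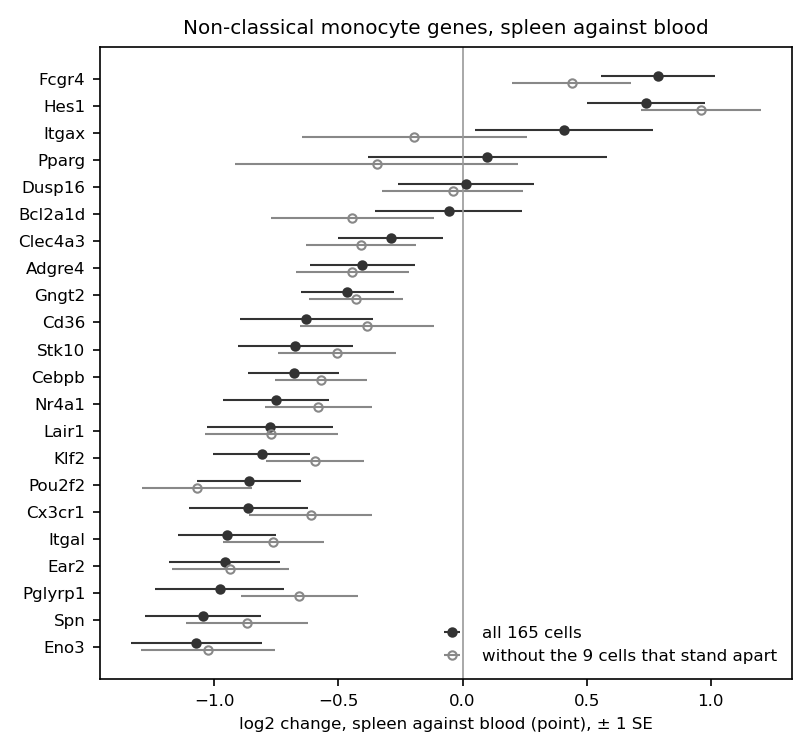
Log2 difference of spleen against blood (horizontal axis, with 1 SE) for the 22 non-classical monocyte genes tested, filled points from all 165 cells and open points without the 9 cells that stood apart. Most points lie left of 0, from -1.07 for Eno3. With all cells 5 genes lie to the right, of which Fcgr4 and Hes1 passed. Fcgr4 moves from 0.79 to 0.44 without the 9 cells.

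In blood, treatment went with more Cxcr4, Tent5a and Il1b in the non-classical monocytes. Of 2121 genes tested, 4 passed (0.189%), 3 of them higher (0.141%), which were these 3, and 1 lower (0.0471%) in treated mice. Cxcr4, Tent5a and Il1b also passed without the neutrophil-rich cell and the macrophage-rich cells (0.188% of 2129 genes, 0.141% higher and 0.047% lower). Cxcr4, the receptor that retains leukocytes in the marrow, was 160, 210 and 128 CPM in vehicle mice 1 to 3 and 303, 533 and 573 CPM in treated mice 2 to 4. The arms did not overlap (log2 1.49 ± 0.30, edgeR adjusted p = 0.00263). Tent5a, a cytoplasmic poly(A) polymerase, was 150, 100 and 283 CPM in the vehicle mice and 471, 462 and 592 CPM in the treated mice (log2 1.44 ± 0.29, edgeR adjusted p = 0.00263). Il1b, the cytokine interleukin-1β, was 122, 30.0 and 142 CPM against 327, 237 and 267 CPM (log2 1.46 ± 0.35, edgeR adjusted p = 0.0332). Both rose without overlap between the arms. By normalized CPM, 244 of the 2121 genes tested had arms without overlap, and the 4 that passed were among them.

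The counts behind these calls were small. Cxcr4 rested on 17, 21 and 19 UMIs in the vehicle mice and 38, 45 and 30 in the treated mice, and Il1b on 13, 3 and 21 against 41, 20 and 14. Each of the 3 calls was lost when a particular mouse was left out. Cxcr4 gave 1.31 (adjusted p = 0.162) without vehicle mouse 3, and Tent5a gave 1.20 (adjusted p = 0.182) without vehicle mouse 2. Il1b gave 1.11 (adjusted p = 0.431) without vehicle mouse 2 and 1.29 (adjusted p = 0.365) without treated mouse 2. DESeq2 called none of the 3, or of any other gene in blood, with 44 genes at an unadjusted p under 0.05 against 116 by edgeR, and edgeR called none at a limit of 5% mitochondrial UMIs (128 at an unadjusted p under 0.05). Cxcr4 was also higher in treated blood in T cells, at 55.2 to 127 CPM against 35.8 to 52.1 CPM, and in B cells, at 176 to 232 CPM against 125 to 152 CPM. In classical monocytes of blood it was 0 to 98.5 CPM in treated and 0 to 78.2 CPM in vehicle mice, overlapping. Tent5a ran from 44.2 to 88.3 CPM in treated and from 75.9 to 114 CPM in vehicle T cells, overlapping. The part of a shift shared with lymphocytes in the monocyte values was not tested.

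None of the 3 genes passed in the spleen. Cxcr4 was 220, 108 and 133 CPM in vehicle spleen and 344, 278 and 165 CPM in treated spleen (log2 0.68 ± 0.39, edgeR adjusted p = 0.512). Il1b was 40.1, 108 and 88.8 CPM against 125, 152 and 147 CPM, without overlap (log2 0.80 ± 0.48, edgeR adjusted p = 0.53). Arms without overlap were found for 271 of 1681 genes tested in spleen. The arms overlapped for Cxcr4. Tent5a gave 0.31 ± 0.37 (edgeR adjusted p = 0.82).

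**Figure D4:**
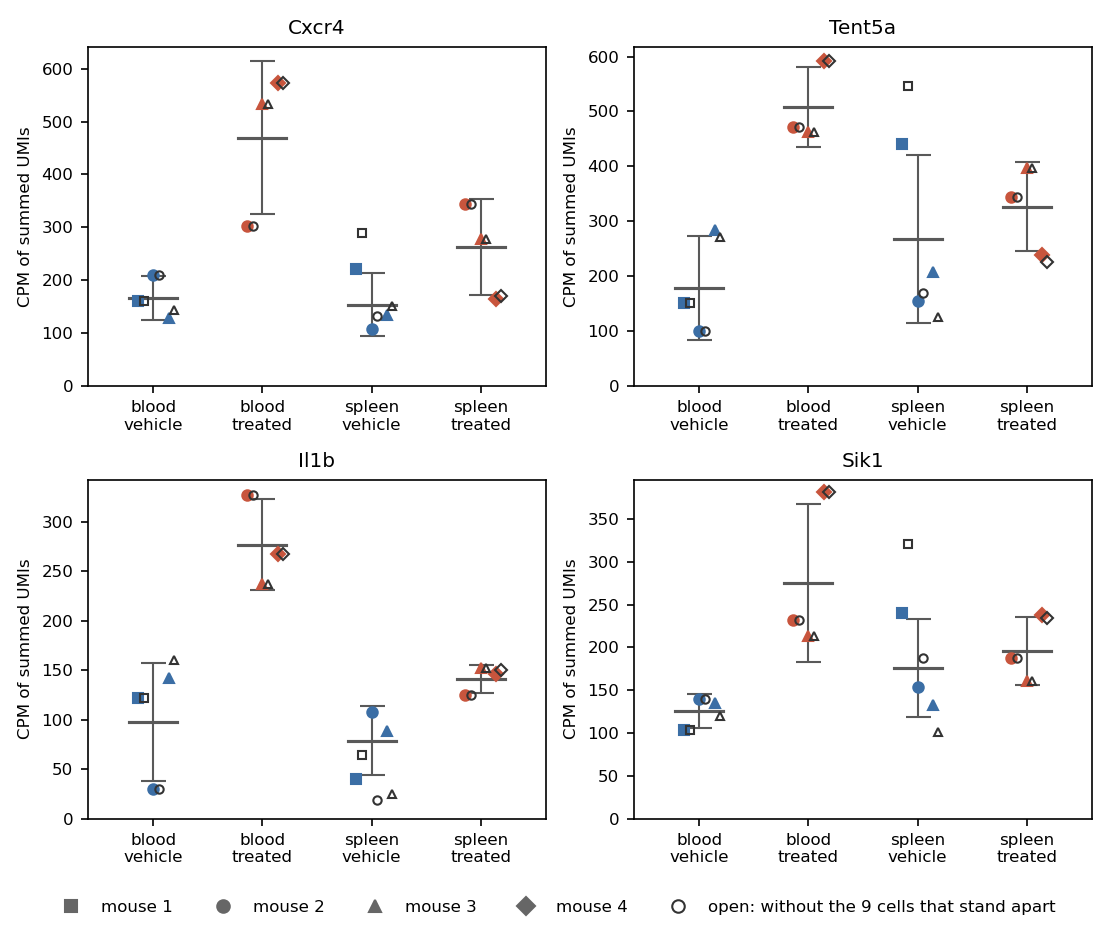
Levels (vertical axes, CPM) of Cxcr4, Tent5a, Il1b and Sik1 in the non-classical monocytes of both tissues, with 1 point per mouse, the mean and SD of each group of 3, and open symbols for the values without the 9 cells that stood apart. In blood the treated mice lie above the vehicle mice for all 4 genes shown, of which Sik1 did not pass the test. Arms without overlap, in either direction, were found for 244 of 2121 genes tested in blood.

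Other genes of the pathway did not pass in blood. Of 7 CREB-CRTC and SIK genes tested, none passed by edgeR or DESeq2, and 2 had an unadjusted p under 0.05 by each. Over all 2121 genes edgeR gave 116 at that p and DESeq2 44. Of the 7, 6 lay above 0, against 48.7% of all genes, with a median log2 difference of 0.41 against -0.01 for all genes. Sik1, a kinase that CREB itself induces, was 103, 140 and 135 CPM in the vehicle mice and 231, 213 and 382 CPM in the treated mice. Its arms did not overlap, and the log2 difference was 1.06 ± 0.34 (edgeR adjusted p = 0.494). Arms without overlap were found for 244 of all 2121 genes tested in blood. Nr4a1 was 752, 950 and 850 CPM against 647, 675 and 936 CPM (log2 -0.17 ± 0.23), with overlapping arms. Crem, a CREB-family factor, was too low to test, at no more than 5 UMIs in any sample of either tissue. Arrdc3, an arrestin-like protein, differed by 2.30 ± 0.59 and missed the threshold (edgeR adjusted p = 0.0774). None of 21 non-classical monocyte genes, 15 MHC and interferon gamma genes or 6 type I interferon genes passed by edgeR or DESeq2. At an unadjusted p under 0.05 edgeR gave 2, 0 and 1 of them and DESeq2 1, 0 and 0. At this depth a simulated 2-fold change was recovered for 45% of genes and a 4-fold change for 83%, so a gene that missed the threshold is not shown to be unaffected. The simulation changed 100 genes at each fold, and 136 passed in it against 4 in the data. More passing genes loosen the adjusted threshold, so these shares can overstate recovery in the data.

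The promoter of Nr4a1 is shown because the gene belongs to both the lineage and the pathway. It spans 250 bases at chr15:101266596-101266845 on the plus strand (RefSeq, GRCm38.p6), and capitals mark the letters TGACG, a core of the cAMP response element searched on both strands, which here all read CGTCA, its reverse complement.
Nr4a1: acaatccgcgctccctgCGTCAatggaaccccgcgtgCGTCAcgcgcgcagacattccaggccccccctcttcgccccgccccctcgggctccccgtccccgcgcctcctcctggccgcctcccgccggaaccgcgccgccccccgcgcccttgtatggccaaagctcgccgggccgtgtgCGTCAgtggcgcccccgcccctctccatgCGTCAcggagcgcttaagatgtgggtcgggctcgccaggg
It held 4 matches, against at least 1 in 17.8% of all windows. The windows of Cxcr4, Il1b and Tent5a held none, which says only that these letters are not in those windows.

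In the treated spleen, the non-classical monocytes held more Hspa1b, Hsp90ab1 and Hsp90aa1 transcripts than in the vehicle spleen. Of 1681 genes tested, 25 passed (1.49%), 9 higher (0.535%) and 16 lower (0.952%) in treated mice. By normalized CPM the arms did not overlap for 271 of the 1681, with 24 of the 25 among them. Of the cells, 7 of the 24 vehicle and 1 of the 44 treated were macrophage-rich. For the calls named, it is therefore stated whether they held without those cells. Levels and log2 differences are from all cells unless stated. Without the macrophage-rich cells 7 of 1724 genes passed (0.406%), 6 higher (0.348%) and 1 lower (0.058%), and 5 of the 7 were among the 25. Hspa1b was 1102, 1092 and 947 CPM in vehicle spleen and 2597, 2969 and 2704 CPM in treated spleen. Vehicle values lay close together and far below all treated values (log2 1.37 ± 0.23, edgeR adjusted p = 8.76e-05). Without the macrophage-rich cells they were 1477, 1049 and 1537 CPM against 2597, 2969 and 2772 CPM (log2 1.11 ± 0.23, edgeR adjusted p = 0.00413). Hspa1b passed with each of the 6 mice left out in turn. Its copy Hspa1a gave 0.68 ± 0.27 in the spleen (edgeR adjusted p = 0.283), and its arms overlapped without the macrophage-rich cells, at 1509, 1592 and 2571 CPM against 2441, 2395 and 2189 CPM. Since the split of reads between the copies was not tested, their sum is given as well. Together they stood at 2144, 2615 and 2619 CPM in vehicle and 5038, 5365 and 4839 CPM in treated spleen. Without the macrophage-rich cells the sums were 2986, 2642 and 4108 CPM against 5038, 5365 and 4961 CPM, so the arms did not overlap on either count. In blood Hspa1b was 117 CPM ± 26.6 (SD, n = 3) in vehicle and 123 CPM ± 39.7 in treated mice.

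Hsp90ab1, the constitutive HSP90, was 782, 477 and 829 CPM in vehicle and 1439, 1569 and 1723 CPM in treated spleen (log2 1.17 ± 0.25, edgeR adjusted p = 0.00552). Hsp90aa1 was 601, 369 and 252 CPM against 876, 877 and 715 CPM (log2 1.01 ± 0.27, edgeR adjusted p = 0.0337). Both rose without overlap and passed without the macrophage-rich cells, although Hsp90aa1 kept its call in only 1 of the 6 fits that left out a mouse. Of 12 heat shock genes tested, these 3 rose and none fell, with a median log2 difference of 0.64, and 0.86 without the macrophage-rich cells. Over all genes tested 0.535% rose, and 0.348% without the macrophage-rich cells. With all cells DESeq2 called 2 of the 12. The 15 genes of the list summed to 6172, 7061 and 6866 CPM in vehicle spleen and 11547, 12424 and 12115 CPM in treated spleen. Without the macrophage-rich cells the sums were 6485, 7438 and 8645 CPM against 11547, 12424 and 12281 CPM. In blood the sums were 4305, 4358 and 3332 CPM in vehicle and 4590, 5060 and 4774 CPM in treated mice. None of 13 genes passed there by edgeR or DESeq2, with 4 and 2 at an unadjusted p under 0.05. Over all 2121 genes the tools gave 116 and 44 at that p. Spleen T cells had more Hspa1b in treated mice too, at 1304 to 1520 CPM against 798 to 1075 CPM, as had spleen B cells, at 895 to 1132 CPM against 527 to 600 CPM, and spleen classical monocytes, at 622 to 2409 CPM against 346 to 496 CPM. The part of this shared shift in the monocyte result was not tested.

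**Figure D5:**
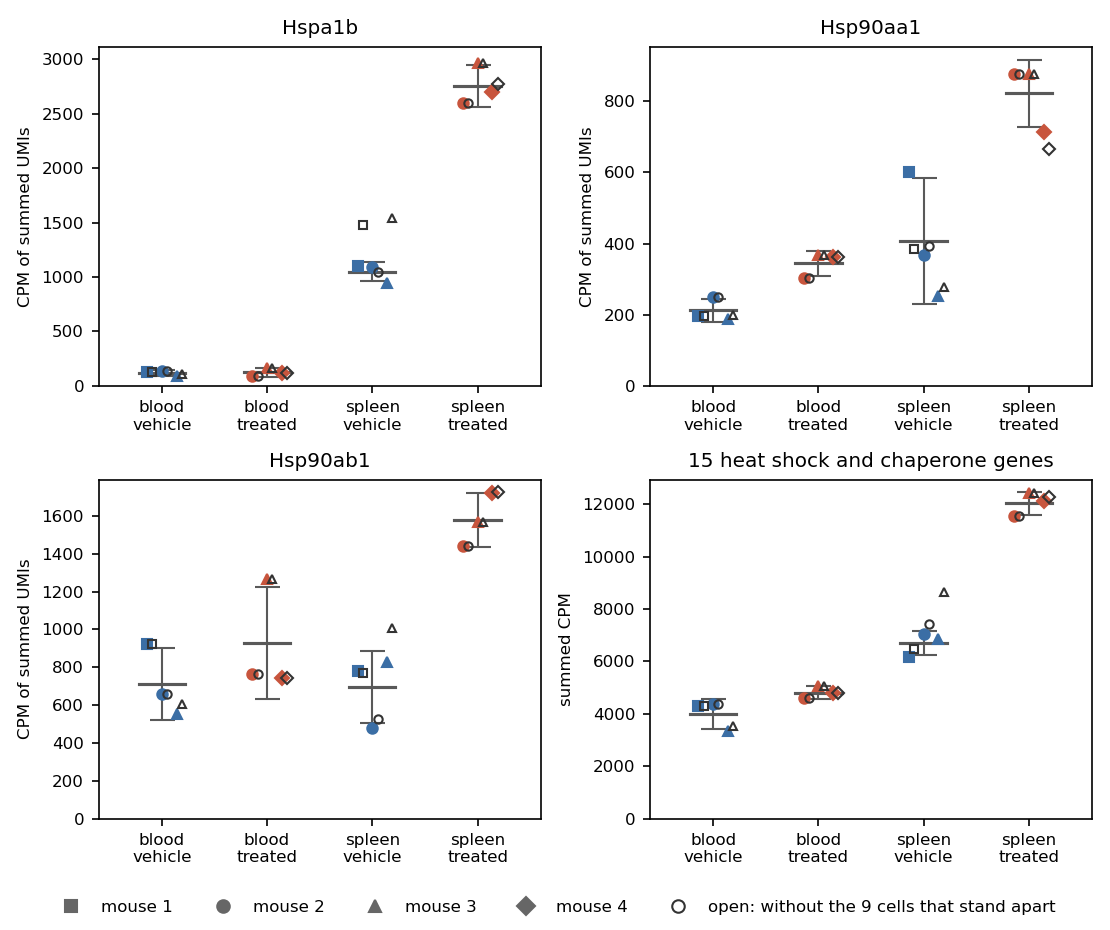
Levels (vertical axes, CPM) of chaperone genes in the non-classical monocytes by tissue and arm, with 1 point per mouse, the mean and SD of each group of 3, and open symbols for the values without the 9 cells that stood apart. Hspa1b lies at 947 to 1102 CPM in vehicle spleen and 2597 to 2969 CPM in treated spleen, and below 170 CPM in all blood samples.

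Tagln2 and Ap1s2 also passed in the spleen with and without the macrophage-rich cells. Tagln2, an actin-binding protein, was 40.1, 123 and 237 CPM in vehicle and 219, 515 and 504 CPM in treated spleen (log2 1.65 ± 0.39, edgeR adjusted p = 0.0134). Its arms overlapped, since vehicle mouse 3 lay above treated mouse 2, and its call was kept in 3 of the 6 fits that left out a mouse. Ap1s2, an adaptor subunit of clathrin-coated vesicles, was 381, 415 and 459 CPM in vehicle and 156, 253 and 73.3 CPM in treated spleen. It fell by 1.38 ± 0.34 (edgeR adjusted p = 0.0208), and by 1.73 ± 0.34 without the macrophage-rich cells (adjusted p = 0.0035). The call of Ap1s2 with all cells was kept in 4 of the 6 fits that left out a mouse.

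Other spleen calls were made only with the macrophage-rich cells included. Acp5, a phosphatase of macrophages and osteoclasts, gave -3.17 ± 0.44 and Fcgr4 gave -1.79 ± 0.29 (edgeR adjusted p = 7.32e-05). Without those cells Acp5 was too low to test and Fcgr4 gave -1.11 ± 0.31 (adjusted p = 0.0785). Fcgr4 is a receptor for IgG complexes carried by non-classical monocytes. It read 610, 525 and 605 CPM in the vehicle and 313, 278 and 207 CPM in the treated spleens without the macrophage-rich cells, with no overlap. S100a10 (1.88 ± 0.43, adjusted p = 0.0092), S100a11 (1.34 ± 0.31, adjusted p = 0.012), Tmsb10 (1.05 ± 0.21, adjusted p = 0.00193) and Emp3 (1.26 ± 0.31, adjusted p = 0.0227) rose in the edgeR fit with all cells. They encode S100 family, actin-binding and membrane proteins. Without the macrophage-rich cells their log2 differences were 1.41, 0.98, 0.85 and 0.80, and none passed. Spn was also higher with all cells (1.30 ± 0.35, adjusted p = 0.0403) and did not pass without them (0.96, adjusted p = 0.302).

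Antigen presentation genes lay mostly above 0 in treated spleen but did not pass. Of 14 MHC and interferon gamma genes tested, 13 lay above 0, with a median log2 difference of 0.78. None passed by edgeR or DESeq2, with 4 and 6 at an unadjusted p under 0.05. Over all 1681 genes, edgeR gave 205 at that p, 47.4% lay above 0 and the median was -0.03. H2-K1, a class I heavy chain, was 1363, 923 and 1006 CPM in vehicle and 2128, 1754 and 1613 CPM in treated spleen (log2 0.70 ± 0.21, edgeR adjusted p = 0.0705). Its arms did not overlap, as for 271 of the 1681 genes tested in spleen. It passed without the macrophage-rich cells (0.91, edgeR adjusted p = 0.0328). The class II gene H2-Ab1 varied widely, at 240, 1031 and 355 CPM against 3067, 1037 and 3217 CPM (log2 2.10 ± 0.98, adjusted p = 0.44). It is also a B cell transcript, and the part of RNA from outside the cells in it was not tested. None of 6 CREB-CRTC and SIK genes passed in spleen by either tool, and none had an unadjusted p under 0.05. Sik1 gave 0.18 and Nr4a1 0.11, and Nr4a1 gave -0.22 without the macrophage-rich cells.

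Summed over both tissues of each mouse, 12 of 2379 genes passed between the arms (0.504%), 8 higher (0.336%) and 4 lower (0.168%) in treated mice. The sums mixed tissues unequally: 69.6% of the vehicle cells came from blood and 48.8% of the treated cells did. Cxcr4 was 179, 170 and 130 CPM in the vehicle and 312, 384 and 297 CPM in the treated mice (log2 1.12 ± 0.22, edgeR adjusted p = 0.00763). Hsp90aa1 was 326, 297 and 208 CPM against 420, 665 and 601 CPM (log2 1.09 ± 0.20, edgeR adjusted p = 0.00639). Crip1, a small LIM-domain protein, was 947, 1309 and 1163 CPM against 1647, 2242 and 2198 CPM (log2 0.88 ± 0.15, edgeR adjusted p = 0.00477). All 3 rose without overlap, and over all genes tested the arms did not overlap for 334 of 2379. Without the 9 cells 6 genes passed (0.256% of 2344), 5 higher (0.213%) and 1 lower (0.0427%), and the 5 higher were those 3 with Tent5a and Hsp90ab1. Of the 6 fits to all cells that left out a mouse, Hsp90ab1 kept its call in 2 and Tent5a in 3. Cxcr4 kept its call in 4, Hsp90aa1 in 5 and Crip1 in 6. Under the other settings Cxcr4 kept it in 8 of 10, Hsp90aa1 in 9 of 11 and Crip1 in 5 of 11. Spleen T cells of treated mice also held more Crip1, at 929 to 1027 CPM against 619 to 787 CPM. Blood B cells held less, at 707 to 854 CPM against 1022 to 1071 CPM. In blood T cells, spleen B cells and classical monocytes of either tissue its arms overlapped. Dnajb1, Il1b and Hspa8 rose and Acp5, Clec4a2 and Fcgr4 fell with all cells, and none of these 6 passed without the 9 cells. A further fit took tissue and arm as terms over the 12 samples, which takes the unequal mix into account. It held no term for the mouse, so the 2 tissues of a mouse counted as separate replicates of its arm. Its p-values therefore do not measure the spread between mice alone. In that fit 6 genes passed, namely Hspa1b, Cxcr4, Hsp90aa1, Il1b and Hsp90ab1, which rose, and Clec4a2, which fell.

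Tests of the difference itself between tissues and between monocyte classes passed for few genes. The treatment effect differed between spleen and blood for 6 of 2008 genes (0.299%), 3 in each direction (0.149%). Without the 9 cells it differed for 3 of 2052 (0.146%), 1 higher (0.0487%) and 2 lower (0.0975%). Ap1s2 passed both ways: its effect was lower in spleen than in blood by 2.11 ± 0.49 with all cells (log2 -2.11, edgeR adjusted p = 0.0127) and by 2.49 without them (-2.49 ± 0.50, adjusted p = 0.00109). With all cells its call was kept in 3 of the 6 fits that left out a mouse. In blood it was 263, 240 and 223 CPM in the vehicle and 351, 486 and 306 CPM in the treated mice, the opposite order to the spleen. Cxcr4, Il1b, Tent5a, Hspa1b and the HSP90 genes did not pass the test of a difference between tissues. Against classical monocytes, of which there were 84 cells and as few as 1 in a sample, the effect differed for 2 of 3393 genes (0.0589%), Gzma and AW112010, both lower. Without the 9 cells it differed for 9 of 3192 (0.282%), 5 higher (0.157%) and 4 lower (0.125%). Neither Gzma nor AW112010 is a marker of the class, and Gzma had at most 3 UMIs in any sample of non-classical monocytes.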

How the data were processed

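Values were UMI counts per gene and cell from a 10x Genomics 3′ library (kit v3.1, per the labels' protocols), deposited as a matrix made with Cell Ranger 6.1.1 on mm10, per the submitters' processing notes. Hashtag counts were deposited in the same matrix, and the deposited hashtag notes gave arm, mouse and tissue. Cells needed at least 200 genes, 500 UMIs, at most 10% mitochondrial UMIs, and 20 or more hashtag UMIs of which 1 hashtag took 80% or more, which removes doublets between samples; no doublet caller was run, so doublets within a sample remain. Counts were summed per mouse and tissue and tested with edgeR 4.0.16 in R 4.3.3 (TMM, filterByExpr, robust quasi-likelihood F test, Benjamini-Hochberg adjusted, threshold 0.05); DESeq2 1.42.0 was an alternative. Shares were tested by exact permutation with scipy 1.17.1. Blood was fitted on the 8 samples with at least 10 cells, as designed, which included the spleens of treated mice 3 and 4. This minimum left too few spleens, so spleen, spleen against blood and the interactions between tissues used a minimum of 5, set after the cell numbers were seen. Comparisons between tissues or classes carried the mouse as a block, since the deposited hashtag notes give both tissues the same arm and mouse number, which was taken to mean 1 animal. Deviations of the tissues of 1 mouse correlated at -0.131 to 0.0152 over 1451 genes, so the values themselves do not show the pairing.

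Genes were named when they passed, had a mean log2 CPM of at least 5 and did not overlap between groups, up to 8 in each direction, with up to 4 passing members of each gene list, the 5 with the smallest p where fewer passed, and a fixed set that included Nr4a1, Sik1, Cx3cr1, Spn, Fcgr4, Ly6c2, Cebpb and H2-Ab1. Arrdc3, Tagln2, Ap1s2, Hpgd, Chil3 and H2-K1 were added after their values were seen where that rule left them out. The members and lists were chosen with earlier results of these data known. Leaving out the 9 macrophage-rich and neutrophil-rich cells was chosen after seeing the data. On simulated counts with known changes, 37% of 2-fold and 94% of 4-fold changes were recovered in the spleen comparison. In that simulation 139 genes passed, against 25 in the data, so these shares can overstate recovery in the data. The result of 1 gene that the rule named is not reported here.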

Additional observations from a re-analysis of the deposited data

Results flagged for a closer look

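The treatment effect differed between spleen and blood, by edgeR's interaction test, for 6 genes. C1qb, a complement component of macrophages, gave a log2 difference of -7.95 ± 1.64 (adjusted p = 0.0061): it was 1563, 92.3 and 1361 CPM in vehicle spleen and 0, 0 and 36.7 CPM in treated spleen, and its vehicle counts came with the 7 macrophage-rich cells. Hba-a1, a haemoglobin gene with a near-identical copy, gave -3.85 ± 0.90 (adjusted p = 0.0127), at 1844, 1584 and 622 CPM against 62.6, 50.6 and 348 CPM in spleen. Emp3, a membrane protein, gave 1.96 ± 0.44 (adjusted p = 0.0123) and Spn gave 1.83 ± 0.47 (adjusted p = 0.0491). Ifi27l2a, an interferon-induced gene, gave 1.81 ± 0.41 (adjusted p = 0.0127), at 701, 831 and 266 CPM in vehicle and 2065, 1586 and 1100 CPM in treated spleen. Without the macrophage-rich cells Emp3 gave 1.51 (adjusted p = 0.142), Spn 1.49 (adjusted p = 0.28) and Ifi27l2a 1.46 (adjusted p = 0.0803). Ap1s2 gave -2.11 ± 0.49 (adjusted p = 0.0127) and passed without those cells as well (-2.49, adjusted p = 0.00109).

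Between non-classical and classical monocytes, the treatment effect differed for Gzma, a granzyme of NK and T cells (log2 -7.38 ± 1.26, edgeR adjusted p = 0.0111), and for AW112010, an interferon-responsive transcript (-4.67 ± 0.63, adjusted p = 0.00384). In the non-classical cells AW112010 was 441, 123 and 178 CPM in vehicle spleen and 31.3, 59.0 and 18.3 CPM in treated spleen. Neither passed without the mouse block.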

How the results depend on the processing

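Counts of 6 to 21 cells per sample limit every comparison, and small changes of a setting moved the number of genes that passed; the cause was not tested. Between the arms with both tissues summed, 12 genes became 6 with DESeq2, 30 with no filter on low counts, 0 with a hashtag share of 95% of at least 50 UMIs (145 at an unadjusted p under 0.05), 1 with at most 5% mitochondrial UMIs, 0 without cells holding a UMI of another lineage (44 cells left, 31 genes at an unadjusted p under 0.05), 7 without the cells of highest depth, 6 without the 9 cells that stood apart, 6 with tissue and arm as terms, 3 with both, and 6 to 18 with a mouse left out. In blood, 4 genes became 0 with DESeq2, 1 with the stricter hashtag limit, 0 at 5% mitochondrial UMIs, 2 with a gate of 3 UMIs, 1 with a minimum of 5 cells, and 2 to 17 with a mouse left out. In spleen, 25 became 9 with the stricter hashtag limit, 12 at 5% mitochondrial UMIs, 7 without the cells of highest depth, 7 without the 9 cells, and 9 to 40 with a mouse left out. Between the tissues, 144 became 52 with DESeq2, 78 without the filter, 23 with the stricter hashtag limit, 71 with a gate of 3 UMIs, 94 without the cells of highest depth, and 73 to 164 with a mouse left out. The 6 genes of the tissue interaction became 0 with DESeq2, 1 without the filter, 1 with the stricter hashtag limit, 1 at 5% mitochondrial UMIs, 13 with a gate of 3 UMIs, 3 without the cells of highest depth, 3 without the 9 cells, and 0 to 12 with a mouse left out. The 2 genes of the class interaction became 7 without the filter, 7 without the cells of highest depth, 9 without the 9 cells, and 0 to 9 with a mouse left out. At an unadjusted p under 0.05, edgeR gave 131 genes in the tissue interaction, against 50 by DESeq2, and 194 in the class interaction. Among the named genes that passed with both tissues summed, 2 of 12 kept the call in every fit that left out a mouse. These counts were 0 of 4 in blood, 5 of 18 in spleen and 26 of 55 between the tissues. They were 0 of 6 in the tissue interaction and 0 of 2 in the class interaction.

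Without the mouse block, the pairing of tissues gave 180 genes between the tissues, 122 of them shared with the blocked fit, 8 genes in the tissue interaction and 0 in the class interaction, and the share difference between blood and spleen had an exact permutation p of 0.00433. The class interaction then had 182 genes at an unadjusted p under 0.05. That share difference was 2.39 points with the stricter hashtag limit and 0.851 points without cells holding a UMI of another lineage, and 1.82 to 2.61 points with a mouse left out, where no p below 0.0625 is possible.

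Some values that had not passed changed sign. The share difference between the arms became 0.495 points in blood at 5% mitochondrial UMIs and -1.10 to 0.204 points with a mouse left out (0.204 without treated mouse 4), and -0.0662 points in spleen with the stricter hashtag limit. In the summed comparison, Cx3cr1 ran from -0.29 to 0.022 with a mouse left out (0.022 without vehicle mouse 2) and became 0.15 with tissue and arm as terms, Spn became 0.033 without cells of another lineage and 0.16 with those terms, Cebpb ran from -0.24 to 0.0072 (0.0072 without vehicle mouse 2) and became 0.042 with those terms, and Ly6c2 became -0.75 with a gate of 3 UMIs. In blood, Ly6c2 became 0.29 with the stricter hashtag limit and ran from -4.21 to 0.26 with a mouse left out (0.26 without vehicle mouse 3), and H2-Ab1 ran from -1.27 without treated mouse 2 to 1.28. In spleen, Nr4a1 became -0.28 at 5% mitochondrial UMIs, -0.0513 without the cells of highest depth, -0.22 without the 9 cells and -0.35 without treated mouse 3 to 0.31 without treated mouse 4, and Sik1 became -0.17 with a gate of 3 UMIs and -0.070 without treated mouse 4 to 0.44 without vehicle mouse 1. Between the tissues, Sik1 became -0.10 without the cells of highest depth and ran from -0.10 without vehicle mouse 1 to 0.23, and Ly6c2 became -0.36 without vehicle mouse 1, -0.13 without treated mouse 3 and -0.11 without treated mouse 4, and up to 2.11 without treated mouse 2. Hspa1b kept its direction and its call in all 15 alternatives fitted in the spleen treatment comparison and in all 15 between the tissues. Leaving out cells of another lineage was not run by tissue, since some samples then held no cell, nor was a minimum of 20 cells, or of 10 for the comparisons that use spleen.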

Other observations

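Some genes passed only in the cells left after the 9 that stood apart were removed, and they were chosen after their values were seen. Hpgd, which degrades prostaglandins, was 0, 150 and 25.2 CPM in vehicle spleen and 469, 236 and 319 CPM in treated spleen, without overlap (log2 2.16 ± 0.51, edgeR adjusted p = 0.0214; 0.72 with all cells, adjusted p = 0.44). Chil3, a chitinase-like secreted protein of monocytes on their way from the marrow, was 1413, 3035 and 1235 CPM in vehicle spleen and 125, 270 and 686 CPM in treated spleen. Its treatment effect differed between spleen and blood by -2.10 ± 0.47 (edgeR adjusted p = 0.00978). As a mean of both arms it was higher in spleen than in blood (log2 1.26 ± 0.24, edgeR adjusted p = 5.31e-05). That mean covers unequal arms, since the difference of spleen against blood was smaller in treated than in vehicle mice. Crip1 also differed between the tissues in its treatment effect (1.84 ± 0.39, edgeR adjusted p = 0.00379), at 674, 806 and 1437 CPM in vehicle and 1627, 2935 and 3110 CPM in treated spleen.

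Among genes lower in spleen, Gm26532, a transcript without an assigned function, had the smallest adjusted p. It was 432, 260 and 243 CPM in vehicle blood and 0, 76.9 and 44.4 CPM in vehicle spleen. In treated mice it was 279, 462 and 420 CPM in blood and 0, 33.7 and 18.3 CPM in spleen (log2 -3.33 ± 0.37, edgeR adjusted p = 1.11e-13). B cells also held more in blood, at 65.7 to 98.7 CPM against 11.5 to 16.5 CPM in vehicle mice, as did classical monocytes, at 199 to 626 CPM against 0 to 89.3 CPM. T cells held little in either tissue, at 2.30 to 9.47 CPM in vehicle blood and 9.29 to 14.5 CPM in vehicle spleen.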
